A study of Mus musculus with 10 samples.

Results

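The chitinase-like, resistin-like and RNase A genes described here are 8 secreted-protein genes, Chil1, Chil3, Chil4, Retnla, Ear2, Rnase2a, Rnase4 and Ang, of the 18384 genes listed in the mRNA-seq data. They were taken by symbol and were chosen by their expected counts and FPKM in these same control and IL-4 cultures, so the difference between the groups is given for them as a description, without a p-value. mRNA-seq was carried out on adipocyte precursors (APs), the fibroblast-like cells that give rise to fat cells, from subcutaneous white adipose tissue of mice. Per the methods, the mice were C57BL/6 J, cells positive for CD45 or CD31 were removed on magnetic columns, SCA-1-positive cells were kept, and both groups were grown in DMEM F12 with fetal bovine serum. Control cultures (replicates 1, 2 and 3) received no IL-4, and IL-4 cultures (replicates 4, 5 and 6) received it from the day after seeding, with harvest on day 4. The age and sex of the mice and the dose of IL-4 are not given in the sources used here, and the design text calls the 3 samples of each group biological replicates.

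Chitinase-like proteins keep the fold of the glycoside hydrolase family 18 chitinases but have lost the catalytic activity. Resistin-like molecules are small cysteine-rich secreted proteins, and the RNase A family holds secreted ribonucleases, among them the eosinophil-associated ribonucleases and angiogenin. In mice, Chil3 (Ym1), Chil4 (Ym2) and Retnla (RELM-alpha) are textbook targets of IL-4 and IL-13 acting through STAT6, best known in alternatively activated macrophages and in airway epithelium.

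Depth was even, at 28526782 to 28674604 expected counts in each control and 28914003 to 29057787 in each IL-4 culture. The SCA-1 gene Ly6a was present, at 2915 ± 267 normalized counts in controls and 6680 ± 992 with IL-4 (SD, n = 3 each), as were the AP markers Pdgfra (9760 ± 417 and 14234 ± 2272) and Pdgfrb, which was lower with IL-4 (27591 ± 2351 and 17488 ± 1737). Ptprc, which encodes the CD45 used for depletion, was also read, at 2563 ± 160 normalized counts in controls and 1294 ± 57.5 with IL-4. Normalized counts are counts set to a common library size with TMM factors. In bulk RNA, fewer cells of a type and less RNA per cell cannot be told apart. Control replicate 3 and IL-4 replicate 6 stood apart from the other libraries of their groups, as described with the genes they touch.

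After 4 days with IL-4, 5 of the 8 genes went from at most 77 reads in any control library to at least 199 in every IL-4 library, 2 went from a high or moderate level to one about 2-fold higher, and Chil1 was read only in controls. Together the 8 genes took 0.0230%, 0.0234% and 0.0280% of all counts in control replicates 1 to 3 and 0.343%, 0.362% and 0.452% in IL-4 replicates 4 to 6. All 7 genes with enough reads to be fitted passed the threshold for upregulation (log2 fold change over 1 and adjusted p under 0.05). Of all 14009 genes fitted, 5.77% did so, and since the genes were chosen with this contrast known, nothing is read from that difference. All 7 had every IL-4 library above every control library, as had 25.2% of the genes fitted.

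**Figure D1:**
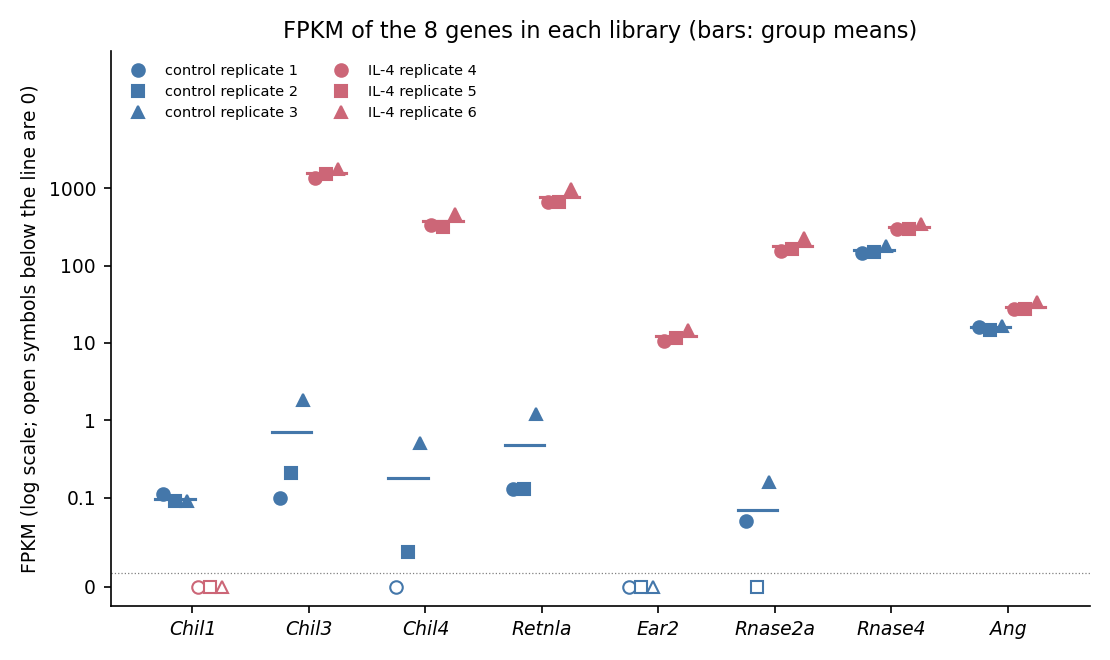
FPKM (reads scaled by transcript length and library size, log axis) of each gene in each library, with controls in blue, IL-4 libraries in red and group means as bars; open symbols below the dotted line are values of 0. Chil3, Chil4, Retnla, Ear2 and Rnase2a lie below 2 FPKM in every control library and between 10.7 and 1770 FPKM with IL-4, while Rnase4 and Ang are present in both groups and Chil1 only in controls.

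Chil3 and Chil4 are neighbours on chromosome 3, transcribed from the minus strand (GRCm38.p6, RefSeq), Chil3 at 106147554 to 106167564 and Chil4 at 106201491 to 106219479. Chil3 had 4, 9 and 77 expected counts in the controls against 58293, 64612 and 75844 with IL-4. In FPKM these were 0.10, 0.21 and 1.82 against 1371, 1515 and 1770. The IL-4 libraries all lay far above every control, and control replicate 3 lay above the other two. By FPKM, Chil3 was the 16th to 19th most abundant gene of the IL-4 libraries and ranked 11005th or lower in each control. Its normalized count was 28.2 ± 38.2 in controls and 69884 ± 8010 with IL-4 (SD, n = 3 per group), with a log2 fold change of 11.26 (SE 0.63).

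Chil4 had 0, 1 and 21 expected counts in the controls against 14126, 13092 and 19735 with IL-4, or 0, 0.02 and 0.51 FPKM against 339, 313 and 470. The pattern was that of Chil3 at a lower level, with control replicate 3 again the highest control and IL-4 replicate 6 the highest of all. Its normalized count rose from 6.89 ± 11.1 to 16489 ± 3415 (SD, n = 3 each), with a log2 fold change of 11.19 (SE 0.50). Within a library, the FPKM of Chil3 was 4.04, 4.84 and 3.77 times that of Chil4 in IL-4 replicates 4, 5 and 6, and 3.57 times in control replicate 3, the only control with more than 1 Chil4 read. The transcripts of Chil3 and Chil4 are 94.4% identical (GENCODE M21), and 18.5% of the 50-base windows of Chil3 occur unchanged in Chil4, so some reads fit both and the ratio depends on how RSEM divided them.

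Retnla (RELM-alpha, a secreted protein of type 2 inflammation) lies on chromosome 16 at 48842609 to 48844461, on the plus strand. Its 2, 2 and 18 expected counts in the controls stood against 10118, 10274 and 15331 with IL-4, or 0.13, 0.13 and 1.19 FPKM against 663, 669 and 992. Here too the groups were far apart and the same 2 libraries were the highest of their groups. The normalized count went from 6.90 ± 8.65 to 12541 ± 2849 (SD, n = 3 each), and the log2 fold change was 10.79 (SE 0.41). By FPKM, Chil3 exceeded Retnla 2.07-, 2.26- and 1.78-fold in the IL-4 libraries. The order of FPKM was Chil3, then Retnla, then Chil4 in each IL-4 library. None of the relatives Retn, Retnlb and Retnlg is listed in any library.

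The promoters of these 3 genes are shown because they carry short motifs that the other members' windows lack. In the RefSeq window from 250 bases before to 50 bases after each start (GRCm38.p6), each of the 3 held a STAT-type palindrome, whose spacer distinguishes the forms that different STAT proteins prefer, and the letters TATAAA, the core of the TATA box. Retnla held TTCNNNNGAA, the form with 4 bases in the middle that STAT6 prefers, starting 145 bases before the gene's start, and TATAAA 30 bases before it. Chil3 and Chil4 held TTCNNNGAA, with 3 bases in the middle. Both motifs were searched over the whole window and read the same on either strand apart from the N positions, and TATAAA was searched on both strands; no match overlapped another. In each 30-base stretch below, printed 5′ to 3′ on the strand of the gene, capitals mark the match. The stretches lie at chr16:48842454-48842483 (plus strand), chr3:106167717-106167746 and chr3:106219660-106219689 (both minus strand) for the STAT-type matches, and at chr16:48842567-48842596, chr3:106167550-106167579 and chr3:106219493-106219522 for TATAAA.
Retnla, STAT-type match: agaatcataaTTCACAAGAAattgctaaac
Chil3, STAT-type match: aaatacccacTTCTTAGAAacatagctatc
Chil4, STAT-type match: aaatacccacTTCTTAGAAacatagctatc
Retnla, TATAAA: aatcccatggcgTATAAAagcatctcatct
Chil3, TATAAA: ggtctcggagtaTATAAAaagccagcagaa
Chil4, TATAAA: ggtctcagagtgTATAAAaagccagcagaa

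The 30 bases around the STAT-type match were identical in Chil3 and Chil4. The match began 172 bases before the start of Chil3 and 200 before that of Chil4, and TATAAA began 3 and 31 bases before the starts, so both motifs were shifted by the same 28 bases. RefSeq gives Chil3 a first exon of 68 bases and Chil4 one of 40 bases, which is the same difference. With that shift, 73.5% of the 272 bases in common were identical. Of 32817 distinct promoter windows of all genes, 6.94% held TTCNNNNGAA, 8.29% held TTCNNNGAA and 8.32% held TATAAA on the strand of the gene (13.6% on either strand). No window of Chil1, Ear2, Rnase2a, Rnase4 or Ang held any of these motifs, which says only that these letters are not in those windows.

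Chil1 (BRP-39, the mouse counterpart of YKL-40) lies on chromosome 1 at 134182156 to 134190031. It had 5, 4 and 4 expected counts in the controls, or 0.09 to 0.11 FPKM, and none in any IL-4 library. The groups did not overlap, but the reads were too few for the fit. With 3 counts per library as the limit that a count of 0 allows, Chil1 was at least 1.30-fold lower with IL-4. Chil1 thus differed from Chil3 and Chil4 in level and direction. That bound allows 3 counts in every IL-4 library and is therefore a loose one. A fit without the filter on low counts called Chil1 downregulated, on these few reads.

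Ear2 and Rnase2a (Ear11) encode eosinophil-associated ribonucleases, named for the granulocytes from which the family was described. The study used Ear2 as a marker of beige adipocytes. Ear2 lies on chromosome 14 at 44102654 to 44103531, and Rnase2a on the same chromosome at 51255261 to 51256112. Ear2 had no read in any control and 199, 215 and 275 expected counts with IL-4, or 10.7, 11.5 and 14.6 FPKM. With the limit of 3 counts per control library it was at least 85.0-fold higher. Its transcript is 96.8% identical to that of Ear1 (GENCODE M21), with 23.6% of its 50-base windows in common. Ear1 had 1 read in all controls together and 2.03 to 2.82 expected counts per IL-4 library, so few of the shared reads were given to it.

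Rnase2a was read 1, 0 and 3 times in the controls against 2895, 3109 and 4274 times with IL-4, or 0.05, 0 and 0.16 FPKM against 154, 164 and 224. The control libraries were at or near 0 and every IL-4 library held 2895 reads or more. Over the 4 control and 10278 IL-4 reads, the ratio of scaled reads was 2859, with a 95% exact interval of 1116 to 10496 that covers counting error only; 3 of the 4 control reads were in control replicate 3. Rnase2a was the more abundant of the pair, by 14.4, 14.3 and 15.4 times in FPKM in the 3 IL-4 libraries. Its transcript shares no 50-base window with that of Ear2 or of its close relative Rnase2b.

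Rnase4 and Ang (angiogenin, also called RNase 5) start at the same base of chromosome 14. Rnase4 runs from 51091077 to 51106151 and Ang from 51091077 to 51102009, both on the plus strand. RefSeq gives each gene transcripts that begin with either of 2 shared first exons, an upstream one of 177 bases (51091077 to 51091253) and a downstream one of 474 bases (51096000 to 51096473). These are spliced to an exon of the gene's own, at 51101386 to 51102009 for Ang and 51104807 to 51106151 for Rnase4. Reads that lie within a shared first exon cannot be assigned to either gene by sequence, and the expected counts of both genes were not whole numbers in any library.

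Rnase4 had 6202, 6326 and 7542 expected counts in the controls against 12836, 12830 and 15034 with IL-4. Its FPKM of 147, 150 and 178 in the controls made it the 346th to 406th gene there, and with 301, 300 and 350 FPKM it was the 192nd to 199th in the IL-4 libraries. The groups did not overlap. The normalized count rose from 6347 ± 637 to 14317 ± 1044 (SD, n = 3 per group), with a log2 fold change of 1.17 (SE 0.09).

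Ang had 356, 325 and 364 expected counts in the controls against 596, 597 and 742 with IL-4, or 16.2, 14.9 and 16.6 FPKM against 27.2, 27.3 and 33.6. It was higher with IL-4 in each library, as Rnase4 was, at a far lower level. Its normalized count rose from 331 ± 16.3 to 680 ± 74.3 (SD, n = 3 per group), with a log2 fold change of 1.04 (SE 0.10). This lies close to the threshold of 1, and it was 0.95 without IL-4 replicate 6 and just under 1 without control replicate 2. With library totals in place of TMM it was 0.87, a scaling that moved the median of all genes from 0.00 to -0.17, so that relative to the median the difference was of the same size. The FPKM of Rnase4 was 9.05, 10.1 and 10.7 times that of Ang in the controls against 11.1, 11.0 and 10.4 times with IL-4, and these ranges overlapped.

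RSEM gives each gene a mean transcript length weighted by the transcripts it inferred. For Rnase4 it was 1546.83 to 1547.99 bases in the controls and 1542.47 to 1544.31 with IL-4, and for Ang 835.37 to 838.21 against 823.05 to 828.08. With the RefSeq lengths of the 2 forms, this corresponds to a share of the downstream first exon of 8.62%, 8.75% and 8.36% for Rnase4 in the controls against 7.51%, 7.33% and 6.89% with IL-4. For Ang the shares were 12.5%, 11.6% and 11.6% against 9.12%, 7.42% and 8.14%. In both genes every IL-4 library had the lower share, and the upstream first exon accounted for most of the transcripts in both groups. Both genes share these first exons, so their shares are not independent observations. No such shares were computed for other genes, so how common a separation of this size is cannot be said. These shares are estimates from model output on RefSeq versions that may differ from those the authors used, since the deposited length of Retnla, for instance, was 598 bases against 541 in RefSeq here.

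The RNase A genes around Rnase4 and Ang did not all move alike. Of 32 relatives of the 3 families that were looked for, 16 are listed and 6 had enough reads to be fitted, and these relatives were no part of the choice of the 8 genes. Rnase1, the pancreatic-type ribonuclease, lies 53.9 kb downstream of the start of Rnase4 and was upregulated from 3, 2 and 1 reads to 29, 26 and 39 (log2 fold change 4.04, SE 0.38, edgeR adjusted p = 9.86e-05, by Benjamini-Hochberg over all genes fitted). With 6 control reads in all, the ratio of scaled reads was 17.4 (95% exact interval 7.72 to 48.7, counting error only). Rnase6, an antimicrobial ribonuclease of myeloid cells, lies between them at 32.8 kb and was downregulated, from 53, 48 and 64 reads to 16, 17 and 26 (log2 fold change -1.32, SE 0.23, edgeR adjusted p = 0.00247). Upregulation and downregulation thus each held for 1 of the 6 relatives fitted, against 5.77% and 5.26% of all genes fitted. Rnase10, 83.3 kb upstream of Rnase4 and an epididymal gene, had 10, 21 and 7 reads without and 14, 11 and 9 with IL-4 (log2 fold change -0.01, SE 0.45, edgeR adjusted p = 0.992), values that overlapped.

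Rnase2b and Ang2, which lie between Rnase1 and Rnase2a, had too few reads for the fit. Rnase2b was read once in all controls and 9, 11 and 21 times with IL-4, and Ang2 once in all controls and 11, 10 and 16 times with IL-4. Their ratios of scaled reads were 45.6 (95% exact interval 7.74 to 1845, counting error only) and 41.2 (6.94 to 1670). Both were higher in every IL-4 library. The other RNase A relatives listed, namely Rnase12, Ang3, Ang4, Ear1, Ear6 and Ear10, had at most 5 expected counts in any library. Rnase2a itself lies 164.2 kb downstream of the start of Rnase4.

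**Figure D2:**
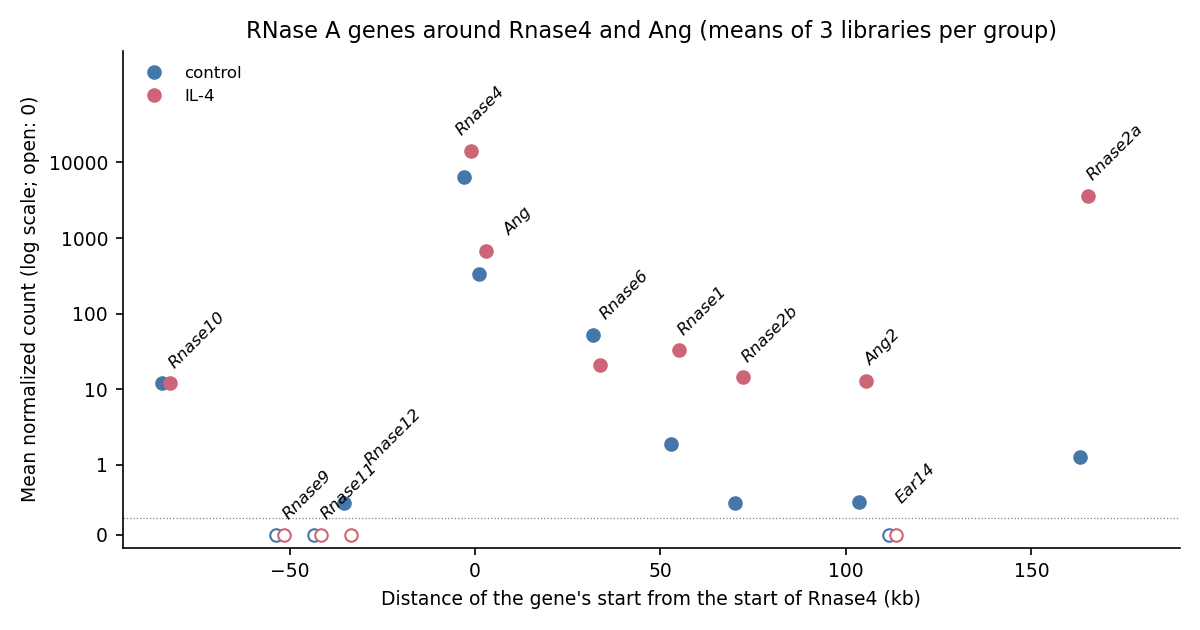
Mean normalized count (log axis, open symbols for 0) of the RNase A genes around Rnase4 in control (blue) and IL-4 (red) libraries, against the distance of each gene's start from that of Rnase4 in kb; Rnase4 and Ang start at the same base and are drawn side by side. Rnase6 lies lower with IL-4, Rnase10 is level at about 12, and Rnase1, Rnase2b, Ang2 and Rnase2a lie higher.

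Among the glycoside hydrolase family 18 relatives, Chid1 (a lysosomal chitinase-domain protein) had 804 ± 14.4 normalized counts in controls and 1111 ± 26.1 with IL-4 (log2 fold change 0.47, SE 0.06, edgeR adjusted p = 0.00045). Ctbs (di-N-acetylchitobiase, which degrades glycoprotein chains in lysosomes) had 480 ± 18.6 and 578 ± 21.4 (log2 fold change 0.27, SE 0.07, edgeR adjusted p = 0.0181). Both were higher at the adjusted p but below the fold threshold, as 19.0% of the genes fitted were higher at any fold. Ovgp1 (oviductin), which lies on chromosome 3 near Chil3 at 105973802 to 105987423, had 51, 46 and 48 reads against 48, 44 and 37 (log2 fold change -0.01, SE 0.17, edgeR adjusted p = 0.961). Chit1, the macrophage chitinase, and Chil5 had at most 2 reads in any library, and Chia1 and Chil6 are not listed.

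Several receptors and binding partners of these proteins were measured. Il13ra2, a receptor described for Chil1 and the decoy receptor of IL-13, had 10, 4 and 11 reads without and 3952, 3776 and 4212 with IL-4 (log2 fold change 9.03, SE 0.16, edgeR adjusted p = 5.02e-08). The transcript of this receptor was therefore abundant in the libraries in which Chil1 had no read. Tmem219, its co-receptor, went from 415 ± 49.9 to 539 ± 61.8 normalized counts (log2 fold change 0.38, SE 0.12, edgeR adjusted p = 0.0382), and Cd44, a further receptor described for chitinase-like proteins, was at 6603 ± 153 and 6299 ± 171 (log2 fold change -0.07, SE 0.05, edgeR adjusted p = 0.371). Lgals3 (galectin-3, which binds Chil1 and its receptor complex) rose from 12506 ± 1681 to 30090 ± 6287 (log2 fold change 1.27, SE 0.16, edgeR adjusted p = 0.00041).

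For the RNases, Rnh1 (the cytosolic ribonuclease inhibitor, which binds RNase A proteins tightly) had 3646 ± 174 normalized counts in controls and 4571 ± 382 with IL-4 (log2 fold change 0.33, SE 0.08, edgeR adjusted p = 0.0102). Plxnb2 (plexin-B2, a receptor of angiogenin) had 14086 ± 1090 and 12106 ± 2038 (log2 fold change -0.22, SE 0.12, edgeR adjusted p = 0.211). The inhibitor was thus higher at the adjusted p but under the fold threshold, while the receptor did not pass. Egfr, also described as a receptor of an RNase A protein, did not pass either (log2 fold change 0.31, SE 0.15, edgeR adjusted p = 0.139). Of genes linked to resistin-like proteins, Tlr4 had a log2 fold change of 0.98 (SE 0.09, edgeR adjusted p = 9.56e-05), Cap1 -0.55 (SE 0.06, edgeR adjusted p = 0.000142) and Btk -0.56 (SE 0.11, edgeR adjusted p = 0.00604), all under the fold threshold.

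In the IL-4 receptor and STAT6 list of 9 genes, all fitted, 2 were upregulated and 0 downregulated by edgeR, against 5.77% and 5.26% of all genes, and at any fold 4 were higher and 1 lower at the adjusted p (2 lower at an unadjusted p under 0.05). The lower gene was the kinase gene Jak3, at 634 ± 44.0 and 360 ± 14.8 normalized counts (log2 fold change -0.82, SE 0.08, edgeR adjusted p = 0.000126). The upregulated genes were the feedback inhibitors Socs1, which went from 109 ± 15.6 to 1000 ± 183 normalized counts (log2 fold change 3.19, SE 0.16, edgeR adjusted p = 3.41e-06), and Cish, which went from 216 ± 3.31 to 2748 ± 224 (log2 fold change 3.67, SE 0.08, edgeR adjusted p = 8.32e-08). The receptor chain Il4ra was at 12156 ± 29.2 and 13883 ± 729 (log2 fold change 0.19, SE 0.06, edgeR adjusted p = 0.0378), and Stat6 at 4158 ± 90.1 and 4249 ± 214 (log2 fold change 0.03, SE 0.06, edgeR adjusted p = 0.717). Receptor and Stat6 transcripts were therefore abundant in both groups. Of the 11 receptors and partners fitted, 2 (Il13ra2 and Lgals3) were upregulated and 0 downregulated by edgeR, and at any fold 6 were higher and 2 (Cap1 and Btk) lower at the adjusted p (2 lower also at an unadjusted p under 0.05). DESeq2 and limma also called none of the 20 genes of both lists downregulated, against 5.26% of all genes with edgeR.

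**Figure D3:**
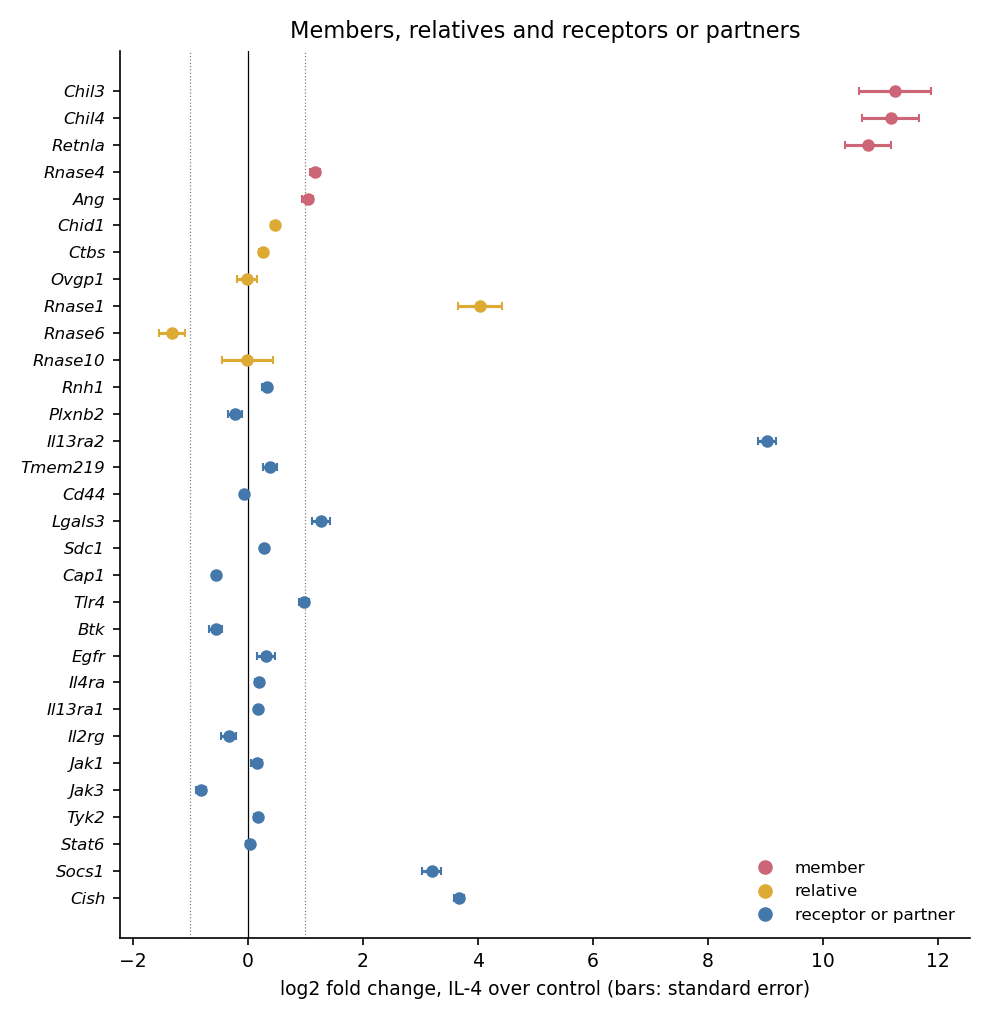
Log2 fold change of IL-4 over control (points) for members, relatives and receptors or partners with enough reads. The color for receptors or partners also covers the separate IL-4 receptor and STAT6 list, such as Socs1 and Cish. Bars show a standard error derived from the edgeR test statistic, which for Chil3, Chil4 and Retnla is smaller than that of DESeq2. Dotted lines mark the threshold of 1 in either direction, and Ear2 and Rnase2a are left out because their controls hold 0 and 4 reads in all. Chil3, Chil4 and Retnla lie at 10.79 to 11.26, Il13ra2 at 9.03, and Rnase4 and Ang near 1.

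Control replicate 3 held more reads of Chil3, Chil4 and Retnla than the other two controls, and 3 of the 4 control reads of Rnase2a. Its level as a share of the mean of the IL-4 libraries was 0.103% for Chil3, 0.119% for Chil4, 0.135% for Retnla and 0.0780% for Rnase2a. In control replicates 1 and 2 the same 4 genes were at 0% to 0.0263%. Of the 269 upregulated genes with at least 1000 normalized counts with IL-4, 6 were under 0.05% in both of these replicates, and the other two, Car4 and Msx3, were at 0.120% and 0.108% in control replicate 3. Since these 6 were picked for low values in control replicates 1 and 2, a higher value in control replicate 3 is partly set by the choice. Il13ra2, with 10, 4 and 11 control reads, and Rnase1, with 3, 2 and 1, were not higher in this way. Ear2 had no read there. The median share over the 269 genes was 33.1%, 32.3% and 32.9% in control replicates 1 to 3. The reason for the reads in control replicate 3 was not tested.

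Without control replicate 3, the log2 fold change of Chil3 was 13.43. For Chil4 and Retnla the fitted values became 14.73 and 12.59, but the 2 controls left hold at most 2 reads each, so these are no bounds, and neither is that of Rnase2a, which went from 11.34 to 12.54 with 1 control read left. Rnase4 gave 1.26 and Ang 1.06 without it. The size of the difference for Chil3, Chil4, Retnla and Rnase2a therefore rested on a few control reads, whereas that of Rnase4 and Ang did not.

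**Figure D4:**
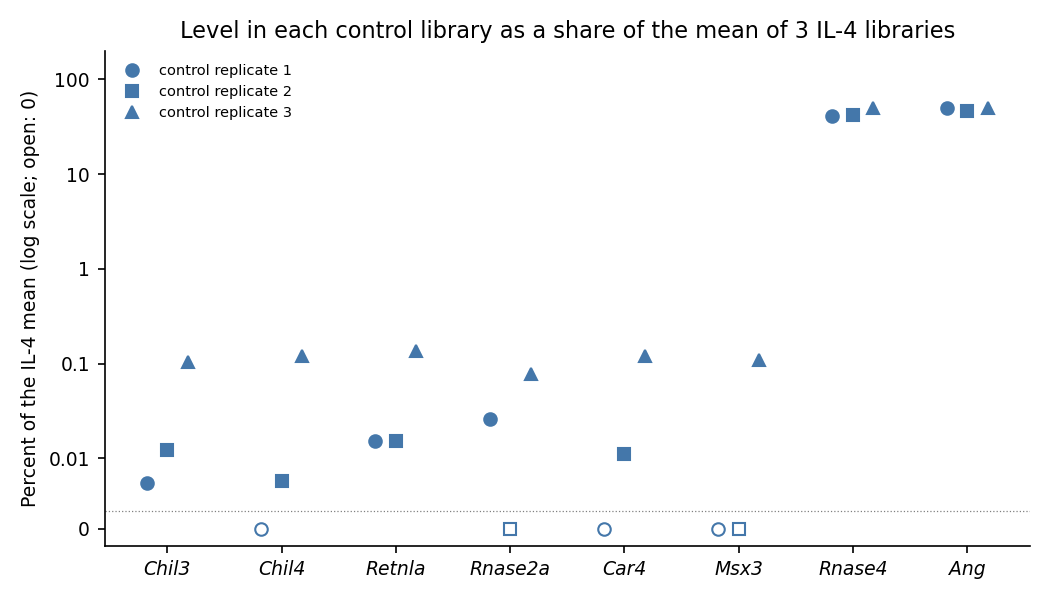
Normalized count in each control library as a percent of the mean of the 3 IL-4 libraries (log axis, open symbols for 0). Chil3, Chil4, Retnla, Rnase2a, Car4 and Msx3 sit near 0.1% in control replicate 3 and lower in control replicates 1 and 2, while Rnase4 and Ang sit at 41.2% to 50.2% in all 3.

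IL-4 replicate 6 had the highest level of each of the 7 genes read with IL-4, at 1.19 times the mean of the other 2 IL-4 libraries for Chil3, 1.40 for Chil4, 1.45 for Retnla, 1.28 for Ear2, 1.38 for Rnase2a, 1.13 for Rnase4 and 1.20 for Ang. Short transcripts in general were higher in this library. The median ratio over 703 genes under 1000 bases was 1.32, and over 3544 genes over 4000 bases it was 0.839, against 1.002 over all genes with at least 100 normalized counts. Retnla, Ear2, Rnase2a and Ang are under 1000 bases long. In control replicate 3 the same medians were 1.14 and 0.923. Macrophage markers had a median ratio of 1.27 in IL-4 replicate 6 and 1.16 in control replicate 3. The part of transcript length or of these markers in the members' spread was not tested.

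Chil3, Chil4 and Retnla are also expressed by macrophages after IL-4, and Ear2 and Rnase2a belong to a family named for eosinophils. Markers of both cell types were therefore measured, and both lists stand beside all of these genes. All 19 macrophage markers were listed and fitted. By edgeR 0 were upregulated (3 were higher at an unadjusted p under 0.05, at a smaller fold, and 0 were upregulated by DESeq2 or limma). Downregulation was called for 7 (Csf1r, Aif1, Cx3cr1, Lyz2, Fcgr1, C1qa and Cd14). Of all genes fitted, 5.77% were upregulated and 5.26% downregulated. At any fold 2 were higher and 16 lower (19.0% and 18.4% of all genes fitted), with a median log2 fold change of -0.86 against 0.00 over all genes. Their summed level ranged from 159719 to 200713 normalized counts in the controls and from 95560 to 109831 with IL-4. The summed marker level was thus lower in the IL-4 libraries, and Lyz2 made up much of the sum and of its difference. Within the groups the order was another one. Control replicate 3 and IL-4 replicate 6 had the highest sums of their groups, 200713 and 109831. They also had the highest levels of Chil3, Chil4, Retnla and Rnase2a. Among the most read, Lyz2 fell from 73406 ± 10700 to 23481 ± 3875 (log2 fold change -1.64, edgeR adjusted p = 5.9e-05), Laptm5 went from 12012 ± 875 to 7871 ± 438 (-0.61, edgeR adjusted p = 0.000396), and Mrc1, the mannose receptor, from 13340 ± 1499 to 23469 ± 2138 (0.82, edgeR adjusted p = 0.000466). Which cells of the cultures made the members' transcripts was not tested.

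Eosinophil markers were near 0. Epx and Prg3, which encode granule proteins, are not listed in any library, and the 4 listed markers summed to 12.4 to 27.8 normalized counts in the controls and 16.0 to 27.9 with IL-4. The most read of them, Ccr3, had 7, 17 and 10 reads without and 12, 6 and 17 with IL-4, so the groups overlapped. Siglecf had 4 to 10 reads per control and 6 to 9 per IL-4 library, and Il5ra at most 4.24. The part of eosinophils, or of other myeloid cells, in the reads of Ear2 and Rnase2a was not tested.

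Of the other lists, neutrophil markers summed to 80.8 to 104 normalized counts in the controls and 96.3 to 109 with IL-4, with Elane and Ngp not listed and Csf3r, Cxcr2 and Ltf the most read. Mast cell markers summed to 53.5 to 60.8 and 80.2 to 113, mostly Kit (log2 fold change 0.56, edgeR adjusted p = 0.0454), with Tpsb2 read only with IL-4 (5, 8 and 11 times), Ms4a2 at most 2 times and Fcer1a not listed. Tpsab1, a mast cell tryptase gene, was not on the list and was picked after seeing the data, so no p-value is given. It had 0.96 ± 1.66 normalized counts in controls and 46.0 ± 11.6 with IL-4 (log2 fold change 5.43). Lymphocyte markers reached at most 11.7, with Cd2 read at most 9 times, Cd79a and Nkg7 at most 3 times and Cd3e and Cd3d not listed. Endothelial markers summed to 1432 to 1576 and 2472 to 3079. Vwf, the von Willebrand factor gene, rose from 191 ± 28.8 to 1608 ± 246 (log2 fold change 3.08, edgeR adjusted p = 2.7e-06), and the higher sum came mainly from it. Tek had a log2 fold change of 0.81 (edgeR adjusted p = 0.00151) and Kdr -0.07 (edgeR adjusted p = 0.719). By edgeR 1 of the 7 (Vwf) was upregulated and 2 were downregulated, against 5.77% and 5.26% of all genes. The median log2 fold change of the list was -0.20. AP markers, 10 of 10 fitted, had 3 upregulated and 0 downregulated by edgeR, against 5.77% and 5.26% of all genes, and at any fold 6 were higher and 2 lower at the adjusted p (2 lower also at an unadjusted p under 0.05), with sums of 570082 to 628099 and 686562 to 784446. Most of each sum was Col1a1, a collagen gene, at 528689 ± 27121 normalized counts in controls and 665655 ± 51954 with IL-4. Of the 3 most read, Col1a1 had a log2 fold change of 0.33 (edgeR adjusted p = 0.0168), Pdgfrb -0.66 (edgeR adjusted p = 0.000989) and Thy1 0.16 (edgeR adjusted p = 0.106). Mature adipocyte markers were represented by Fabp4, which rose from 545 ± 47.5 to 1168 ± 195 (log2 fold change 1.1, edgeR adjusted p = 0.000302), whereas Adipoq was read at most 13 times, Plin1 at most 2 times, and Lep is not listed.

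**Figure D5:**
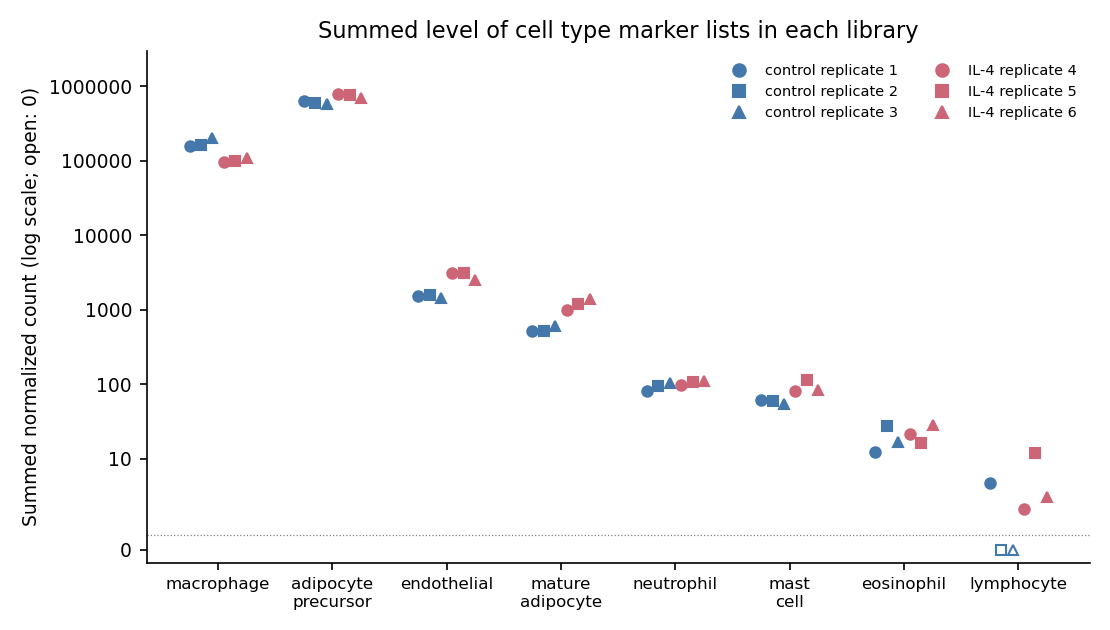
Summed normalized count of each marker list in each library (log axis, open symbols for 0), controls in blue and IL-4 libraries in red. The macrophage sum lies between 95560 and 109831 with IL-4, below the controls. The AP sum, most of it from Col1a1, is at least 570082 in every library, and the eosinophil sum stays under 28 in every library.

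Over the 6 libraries, the genes most like Chil3 in Pearson's r of log2(normalized count + 1), among the 11412 genes with a mean of at least 100, were Car4, a carbonic anhydrase (r = 0.9999), and then Pcgf5, Sh3tc1, Stc2 and Sdccag8 (r of 0.9986 to 0.9998). Car4 shared the size of the difference (0, 0.960 and 10.3 normalized counts in the controls against 8011, 8106 and 9595 with IL-4), whereas Pcgf5 went only from 218, 223 and 243 to 318, 320 and 319. Those most like Rnase4 were Bambi, Gpr65, Serping1, Ccl9 and Carhsp1 (r of 0.9988 to 0.9995). Serping1, the complement C1 inhibitor, was at 7284, 7425 and 8401 normalized counts in the controls against 16158, 16183 and 17460 with IL-4. With 2 groups of 3 libraries, r mainly reflects the distance between the groups and is given as a description.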

How the data were processed

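mRNA-seq of 3 control and 3 IL-4 cultures was used; the 4 small RNA libraries were not used here. Per the authors, reads were cleaned by SOAPnuke and levels were estimated using Bowtie2 and RSEM; the submitters' processing notes also name HISAT, StringTie and mm10, with no versions. The deposited files give RSEM's expected counts (not normalized) and FPKM (set by the authors relative to transcript length and depth). A gene missing from a file was taken as 0. Of the expected counts above 0, 87.0% were whole numbers (within 1e-06); 1 row that names no gene was left out (at most 0.000225% of a library). Whether the libraries kept strand is not given in the sources used here.

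After rounding and a filterByExpr filter (minimum count 10, minimum total 15), expected counts were scaled with TMM and compared with the quasi-likelihood test of edgeR 4.0.16 (R 4.3.3), with Benjamini-Hochberg adjustment over 14009 genes; the common biological coefficient of variation was 0.0939. Calls required a log2 fold change beyond 1 and an adjusted p under 0.05. Each SE was taken as the absolute log2 fold change over the square root of the quasi-likelihood F statistic. For Chil3, Chil4 and Retnla this gave 0.63, 0.50 and 0.41, against standard errors of 1.12, 1.55 and 0.93 with DESeq2. The SE of genes with few control reads therefore depends on the method. Alternatives were DESeq2 1.42.0, upper-quartile scaling, library totals, no filter, limma 3.58.1 after adding 1 or 0.1 to FPKM on the log2 scale, and each library left out in turn. The p-values set the difference between the groups against the estimated spread between cultures of a group, and intervals cover counting error only. Whether the cultures of a group came from different mice is not given in the sources used here. Other steps used Python 3.11.15 with pandas 2.3.3, scipy 1.17.1, biopython 1.88 and matplotlib 3.10.9.

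Loci and promoter windows are from RefSeq on GRCm38.p6, the assembly of mm10, and all 8 members had a window; transcripts were aligned from GENCODE M21. The members and lists were chosen with earlier results of these data known. Named were all members, relatives with at least 10 expected counts in any library, receptors and partners that passed or have a stated role, the 3 most read genes of each marker list, and the 5 genes most like Chil3 and Rnase4. Ly6a, Pdgfra, Ptprc and Tpsab1, the first exons, transcript similarity, and the values on control replicate 3 and IL-4 replicate 6 were chosen after seeing the data.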

Additional observations from a re-analysis of the deposited data

How the results depend on the processing

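The direction of the 7 members fitted was fixed by how they were chosen, so that it did not change in the 12 alternatives is no support for it. The number upregulated was 7, or 6 where Ang fell below the fold threshold (library totals, both limma fits, and without control replicate 2 or IL-4 replicate 6). The log2 fold change ranged from 9.96 to 13.43 for Chil3, 8.32 to 14.73 for Chil4, 9.08 to 12.59 for Retnla, 3.71 to 11.03 for Ear2 and 7.39 to 12.54 for Rnase2a (both with controls at or near 0, so these are no bounds), 1.0 to 1.26 for Rnase4 and 0.84 to 1.1 for Ang, with the lowest values of the first 5 from limma, where a pseudocount stands in for absent reads. Library totals and the limma fits moved the median of all genes to -0.17, -0.13 and -0.17. Without the filter on low counts, 1 member (Chil1) was downregulated in place of 0, and 3 relatives (Rnase1, Rnase2b and Ang2) were upregulated in place of 1. Leaving out each library gave 1 to 3 upregulated relatives, since Rnase2b, Ang2 or both entered the fit in each case but that without IL-4 replicate 6. With limma on log2(FPKM + 1), 0 relatives were downregulated in place of 1. The relative lost was Rnase6, at a mean FPKM of 1.92 in controls and 0.67 with IL-4, so the added 1 is of the size of its values. With 0.1 added, Rnase6 was downregulated. The cause was not tested further. Leaving out control replicate 2 or IL-4 replicate 6 added Tlr4 to the 4 upregulated genes of the partner list and the IL-4 receptor and STAT6 list. The number of downregulated macrophage markers ranged from 6 to 10. The level of Rnase4 in controls was 44.3% of its IL-4 mean in normalized counts and 49.9% in FPKM. Its ratio to Ang in expected counts, which are not scaled by length, was 19.2 in controls and 21.1 with IL-4 in place of 9.95 and 10.8 in FPKM. No paired analysis was possible because the control and IL-4 mRNA-seq cultures share no replicate number. Depth limits Chil1, Ear2 and Rnase2a, of which at least 1 group has 5 or fewer reads per library.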
